A study of Mus musculus with 48 samples.

Results

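Genes that mark the formative and primed epiblast, *Otx2*, *Fgf5*, *Pou3f1*, *Zic2*, and *Foxd3*, were followed through MKOS and OKMS reprogramming. They were chosen by name and are 5 of the 24264 transcripts counted in each library. The data are 48 RNA libraries of 20 conditions, read from the 5′ end of each transcript by the STRT method. In MKOS and OKMS, doxycycline induces 1 polycistronic transcript of the reprogramming factors *Oct4*, *Sox2*, *Klf4*, and *Myc*, joined in the order that the letters give, and OKMS carries the shorter form of *Klf4*. Each cassette, with CAG-driven rtTA, sits in an intron of *Sp3* in TNG ESCs, which also carry a *Nanog*-GFP reporter. MKOS and OKMS MEFs were prepared from chimeric embryos made with these ESCs, and for reprogramming they were mixed with WT MEFs and kept in doxycycline and vitamin C. Cells were sorted at day 10, although the culture note in the labels reads 10 or 15 days. Gate 2 holds CD44- ICAM1- cells and gate 3 CD44- ICAM1+ cells, and NG- or NG+ stands for absent or present *Nanog*-GFP. The 8 sorted populations, with 3 libraries each, were, for each cassette, E-CAD+ cells that were 3NG+, 3NG-, or 2NG-, and, for OKMS alone, E-CAD- cells that were 3NG- or 2NG-. The other 12 conditions, with 2 libraries each, were WT, MKOS, and OKMS MEFs, MKOS and OKMS iPSC clones kept without doxycycline (-dox) or in 2i, D6 iPSCs (a line with a single *piggyBac* MKOS integration), and ESCs of 4 lines (TNG, TNG with the MKOS or the OKMS cassette, and E14). Since the labels do not say that libraries of a condition came from separate cultures, p-values measure the spread between these libraries, which may be technical.

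Naive pluripotent cells resemble the epiblast of the blastocyst, and primed cells resemble the epiblast after implantation, with the formative state between them. When naive cells leave 2i, a mixture of inhibitors of MEK and GSK3, FGF signaling through ERK rises and the formative genes are switched on. *Otx2* encodes a homeodomain factor that redirects OCT4 to new enhancers at this step, and *Pou3f1* (also known as *Oct6*) a POU factor of the epiblast that also acts in neural and Schwann cells. *Foxd3* encodes a forkhead factor needed in the epiblast and in neural crest, and *Zic2* a zinc finger factor that binds enhancers in ESCs and acts in the neural plate. *Fgf5* encodes a secreted growth factor and is the classical marker of the epiblast after implantation.

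In GRCm38, *Otx2* lies on the minus strand at chr14:48656781-48667644, *Zic2* on the plus strand of the same chromosome at chr14:122475384-122480328, *Fgf5* at chr5:98254184-98277033, *Pou3f1* at chr4:124657646-124660655, and *Foxd3* at chr4:99656299-99658671, the last 3 on the plus strand. Reads with a single genome position made up all 11898 reads of *Otx2*, 1549 of *Fgf5*, and 1214 of *Pou3f1*, 2608 of 2609 for *Zic2*, and 2217 of 2240 for *Foxd3*. RefSeq promoter windows on GRCm38.p6 were matched for 3 of the 5 genes, with 4 start sites for *Otx2*. Because STRT reads begin at transcript starts, the 250 bases before the start are shown for the outermost *Otx2* start (chr14:48667645-48667894), the *Otx2* start inside the gene with the most CpG (chr14:48665110-48665359), *Fgf5* (chr5:98253934-98254183), and *Foxd3* (chr4:99656049-99656298). All run 5′ to 3′ on the strand of the gene, and capitals mark matches on either strand to 5 motifs. These were the letters TAATCC bound by OTX proteins, the letters TATAAA of the promoter box of that name, the letters CTTTGA bound by TCF/LEF proteins, the letters CCGGAA bound by ETS proteins, and the letters TGCAAAT bound by POU proteins, and no matches overlapped.
Otx2, outermost start: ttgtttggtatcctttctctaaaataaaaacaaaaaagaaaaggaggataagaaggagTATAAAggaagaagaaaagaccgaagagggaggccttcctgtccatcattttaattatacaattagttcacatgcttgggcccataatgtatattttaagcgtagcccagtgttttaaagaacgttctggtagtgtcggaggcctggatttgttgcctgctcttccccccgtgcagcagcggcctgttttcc
Otx2, inner start: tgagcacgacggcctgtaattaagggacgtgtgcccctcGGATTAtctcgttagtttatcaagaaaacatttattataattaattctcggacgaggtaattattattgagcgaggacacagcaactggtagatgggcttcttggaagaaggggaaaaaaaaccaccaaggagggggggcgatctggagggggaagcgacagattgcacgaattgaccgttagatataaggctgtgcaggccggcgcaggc
Fgf5: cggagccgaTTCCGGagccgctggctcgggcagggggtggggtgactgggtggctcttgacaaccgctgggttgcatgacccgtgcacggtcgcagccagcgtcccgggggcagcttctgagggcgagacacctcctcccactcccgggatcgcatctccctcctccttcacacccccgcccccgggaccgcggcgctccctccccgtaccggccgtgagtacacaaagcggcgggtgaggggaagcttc
Foxd3: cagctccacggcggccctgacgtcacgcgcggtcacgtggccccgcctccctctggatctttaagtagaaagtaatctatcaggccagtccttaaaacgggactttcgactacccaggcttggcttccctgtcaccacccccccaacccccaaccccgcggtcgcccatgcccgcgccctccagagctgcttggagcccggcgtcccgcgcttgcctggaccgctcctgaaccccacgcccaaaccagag
The outermost *Otx2* window held 1 TATAAA, 192 bases before the start, the inner window 1 TAATCC on the opposite strand, the *Fgf5* window 1 CCGGAA on the opposite strand, and the *Foxd3* window none of the 5. Of all 32851 windows of this length, 12.4% held TATAAA, 6.25% TAATCC, 12.03% CCGGAA, 13.8% CTTTGA, and 3.56% TGCAAAT. The ratio of observed to expected CpG was 0.550 and 1.03 in the outermost and inner *Otx2* windows, 0.767 for *Fgf5*, and 0.854 for *Foxd3*, against a median of 0.373 over all windows. A match describes these letters only and is not evidence of binding.

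Libraries held 1429717 to 14174725 reads on transcripts, so that 3 reads, taken as the floor, corresponded to 0.212 to 2.10 CPM (reads of a gene scaled to a common total of reads on transcripts); this floor covers counting error only. The sort genes followed the gates in part. *Cdh1*, which encodes E-CAD, ranged from 4.24 to 51.5 CPM in the 6 OKMS E-CAD- libraries and from 137 to 182 CPM in the 6 OKMS E-CAD+ NG- libraries. *Nanog* had no read in the 6 MEF libraries and ranged from 51.1 to 97.3 CPM in the 6 NG+ libraries, but NG- libraries reached 75.7 CPM. *Cd44*, for which all gates were negative, was at 9.18 to 159 CPM in the 12 OKMS NG- libraries, which overlaps the 65.4 to 362 CPM of MEFs, and at 21.1 to 43.8 CPM in the 6 MKOS NG- libraries. Replicate 3 of OKMS E-CAD+ 2NG- and 3NG- stood apart from the other libraries of these populations. Its 14 genes of the primed list, which holds no member, summed to 527 and 619 CPM against 40.9 to 173 CPM in the other 4, and *Cd44* was at 12.5 and 9.18 CPM against 36.8 to 135 CPM. Values without these libraries are given where they change a result.

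**Figure D1:**
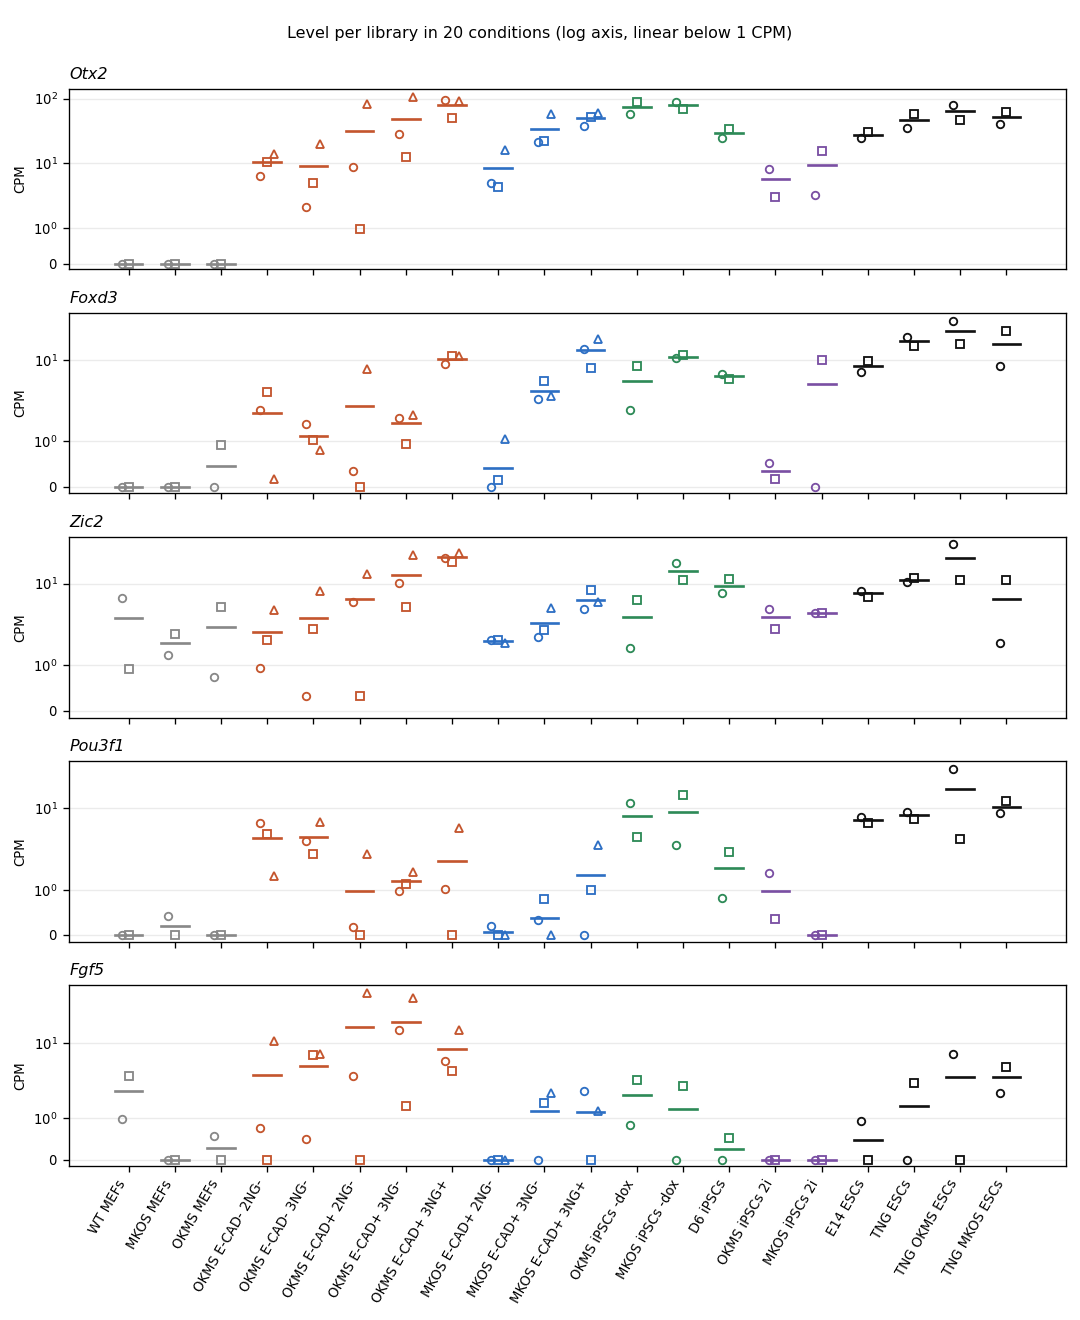
Level of each gene in CPM (log axis, linear below 1 CPM) in the 48 libraries of 20 conditions. Circles, squares, and triangles are replicates 1, 2, and 3 and short lines are condition means, with MEFs in grey, OKMS sorted cells in orange, MKOS sorted cells in blue, iPSCs in green, iPSCs in 2i in purple, and ESCs in black; *Otx2* lay at 0 in all 6 MEF libraries and *Fgf5* in all 4 libraries of iPSCs in 2i.

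The 5 genes had distinct profiles over the 20 conditions, as the plot of levels by condition shows. *Otx2* was highest in OKMS E-CAD+ 3NG+ cells, at 79.7 ± 24.95 CPM (SD, n = 3), followed by MKOS and OKMS iPSCs -dox at 78.8 ± 12.6 and 73.1 ± 21.5 CPM (SD, n = 2). *Foxd3* was highest in TNG OKMS ESCs, with 30.3 and 15.9 CPM, and *Pou3f1* also, with 30.3 and 4.26 CPM. *Zic2* was highest in OKMS E-CAD+ 3NG+ cells, with 20.8, 18.2, and 23.7 CPM, and was the only member with a read in all 48 libraries, MEFs included. *Fgf5* had its highest means in OKMS E-CAD+ 3NG- and 2NG- cells (18.8 and 16.4 CPM) and had a read in 29 libraries. Without replicate 3 these means were 8.12 and 1.79 CPM, below the 8.24 CPM of OKMS 3NG+ cells. That of 2NG- cells was also below the means of OKMS E-CAD- 3NG- and 2NG- cells (4.85 and 3.73 CPM). It was likewise below those of TNG MKOS and TNG OKMS ESCs, WT MEFs (2.32 CPM), and OKMS iPSCs -dox (2.02 CPM). With conditions ordered by mean, the ranges of neighbors overlapped in 17 of 19 neighbor pairs for *Otx2*, 17 for *Foxd3*, 18 for *Zic2*, and all 19 for *Pou3f1* and for *Fgf5*. For *Otx2*, the ranges separated between E14 ESCs and OKMS E-CAD- 2NG- cells and between iPSCs in 2i and MEFs.

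Comparing MEFs with iPSCs asks which members distinguish the endpoints of reprogramming. *Otx2*, *Foxd3*, *Pou3f1*, and *Zic2* were higher in MKOS and OKMS iPSCs -dox than in MKOS and OKMS MEFs, and *Fgf5* did not pass the test. *Otx2* had no read in any MEF library and 87.7 and 69.9 CPM in MKOS iPSCs and 57.9 and 88.4 CPM in OKMS iPSCs, a mean at least 719-fold above the floor of 3 reads over the 4 cassette MEF libraries (edgeR quasi-likelihood test, FDR = 4.6e-09). *Foxd3* rose from 8 reads in 1 of these 4 MEF libraries to 10.6, 11.5, 2.47, and 8.55 CPM (log2 fold change 6.46, SE 1.28, FDR = 5.6e-05), and *Pou3f1* from 4 reads in 1 MEF library to 3.53, 14.5, 11.5, and 4.45 CPM (7.03, SE 1.40, FDR = 6.5e-05). *Zic2* differed less, from 0.742 to 5.15 CPM in MEFs to 1.65 to 17.7 CPM in iPSCs, with overlapping ranges (log2 fold change 1.82, SE 0.70, FDR = 0.029). Without replicate 2 of OKMS iPSCs -dox the *Zic2* change was 1.22 (FDR = 0.22), and it also missed the threshold without replicate 1 of MKOS iPSCs -dox, MKOS MEFs, or OKMS MEFs (FDR = 0.078, 0.10, and 0.12). *Fgf5* had a log2 fold change of 4.67 (SE 2.11, FDR = 0.064). With each library left out this change ranged from 1.58 to 6.59, and it was 5.20 without replicate 1 of MKOS iPSCs -dox. Levels of *Fgf5* were 0, 2.66, 0.825, and 3.21 CPM in the iPSCs, beside 0.981 and 3.65 CPM in WT MEFs, which this comparison leaves out. The folds of *Foxd3*, *Pou3f1*, and *Fgf5* average log2 condition means. Their sizes are not measured ratios, since *Foxd3* and *Fgf5* had no read in MKOS MEFs and *Pou3f1* had none in OKMS MEFs. Of all 15630 genes tested, 50.6% were called in this comparison in either direction, beside 4 of the 5 members. In bulk RNA, a larger share of expressing cells and more RNA per cell cannot be told apart.

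*Otx2* differed from MEFs already in populations without *Nanog*-GFP. From MKOS MEFs to MKOS E-CAD+ 2NG- cells, *Otx2* was the only 1 of 5 members called, against 27.0% of all genes called. Its levels in the 2NG- cells were 4.999, 4.28, and 16.3 CPM, at least 40.5-fold above the MEF floor on average (FDR = 0.0025). From OKMS MEFs to OKMS E-CAD- 2NG- cells, *Otx2* and *Pou3f1* were called, 2 of 5 members against 21.8% of all genes called. *Otx2* reached 6.45, 10.6, and 14.02 CPM, at least 48.8-fold (FDR = 0.0020), and *Pou3f1* 6.64, 4.81, and 1.47 CPM, at least 20.3-fold (FDR = 0.0086), and neither had a read in OKMS MEFs. In MKOS E-CAD+ 2NG- cells, *Pou3f1* had 2 reads in all and *Fgf5* none. These calls depended on single MEF libraries. That of *Otx2* was lost in MKOS without replicate 1 of MKOS MEFs, and in OKMS without replicate 2 of OKMS MEFs. That of *Pou3f1* was lost without replicate 1 or without replicate 2 of OKMS MEFs.

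E-CAD- cells were sorted from OKMS reprogramming only, and the comparison with E-CAD+ cells of the same gates asks what accompanies the epithelial state. *Otx2* was higher in E-CAD+ 2NG- and 3NG- cells and was the only 1 of 5 members called, against 7.08% of all genes called. Its levels were 8.69, 0.967, and 83.9 CPM in E-CAD+ 2NG- and 28.9, 12.4, and 106 CPM in E-CAD+ 3NG- cells. In E-CAD- cells they were 6.45, 10.6, and 14.02 CPM (2NG-) and 2.15, 4.88, and 19.9 CPM (3NG-). The groups overlapped, and replicate 3 gave the highest value in all 4 populations. The log2 fold change was 2.24 (SE 0.57, FDR = 0.010), but 0.89 (FDR = 0.34) without replicate 3 of E-CAD+ 2NG-, 1.602 (FDR = 0.084) without replicate 3 of E-CAD+ 3NG-, and 1.06 (FDR = 0.19) without 7 sorted libraries, replicate 3 of the 6 NG- populations and replicate 2 of OKMS 3NG+.

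*Pou3f1* leaned the other way in this comparison. It had 6.64, 4.81, and 1.47 CPM in E-CAD- 2NG- cells and 3.96, 2.79, and 6.81 CPM in E-CAD- 3NG- cells, against 0.170, 0, and 2.75 CPM and 0.982, 1.19, and 1.65 CPM in E-CAD+ cells. The log2 difference of E-CAD+ minus E-CAD- was -1.73 (SE 0.81, FDR = 0.20), and without the 7 libraries it was -3.54 (FDR = 0.038); leaving out replicate 3 of E-CAD+ 2NG- alone also brought the call (-3.37, FDR = 0.036). *Zic2* and *Fgf5* had positive differences of 1.74 (SE 0.57, FDR = 0.056; 0.015 to 0.24 with each library left out, and called without replicate 2 of either E-CAD+ or replicate 3 of either E-CAD- population) and 2.25 (SE 1.13, FDR = 0.24; 0.65 without replicate 3 of E-CAD+ 2NG-), and *Foxd3* had 0.64 (SE 0.74, FDR = 0.70), which turned to -1.79 (FDR = 0.30) without the 7 libraries and to -1.27 (FDR = 0.45) without replicate 3 of E-CAD+ 2NG-.

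Other gene lists moved in the same comparison. Of 13 naive genes, 9 were higher in E-CAD+ cells, led by *Dppa3* (4.42, SE 0.57) and *Esrrb* (4.34, SE 0.39), with a median log2 difference of 1.65 against 0.01 over all genes tested. Of 16 formative genes, 3 were higher, namely *Grhl2* (3.89, SE 0.59), an epithelial regulator, *Utf1* (3.19, SE 0.37), and the DNA methyltransferase *Dnmt3b* (3.05, SE 0.45). Of 8 neural genes, 4 were lower in E-CAD+ cells, among them *Pax6* (-4.27, SE 1.23) and the neuronal tubulin *Tubb3* (-3.79, SE 0.41). The 8 neural genes summed to 72.7 to 652 CPM in the 6 E-CAD- libraries and to 19.1 to 65.8 CPM in the 6 E-CAD+ NG- libraries. The 5 neural crest genes summed to 12.2 to 30.9 CPM in E-CAD- and to 0.952 to 10.9 CPM in E-CAD+ NG- libraries, with none of 5 called. Of 8 MEF genes, 6 were lower in E-CAD+ cells, with sums of 69.7 to 275 CPM against 523 to 844 CPM in E-CAD- cells. With replicate 3 of E-CAD+ 2NG- left out, 8 naive and 3 formative genes were higher and 2 neural and 6 MEF genes lower, and without the 7 libraries these counts were 6, 3, 1, and 6. In the 6 MEF libraries the neural genes summed to 51.7 to 120 CPM and the neural crest genes to 20.5 to 91.3 CPM. These sums do not show which cell types were present. Whether any cell type had a part in the levels of *Pou3f1* and *Foxd3* was not tested.

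**Figure D2:**
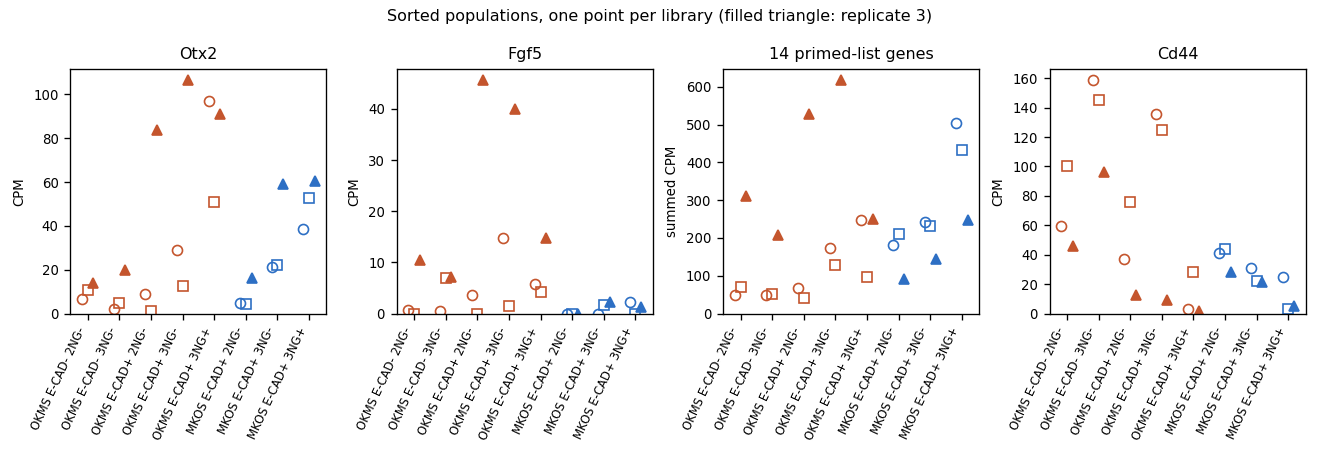
*Otx2*, *Fgf5*, the summed primed list, and *Cd44* in CPM (linear axes from 0) in the 24 sorted libraries, OKMS in orange and MKOS in blue. Circles and squares are replicates 1 and 2 and filled triangles replicate 3, which lies above the others for *Otx2*, *Fgf5*, and the primed list in OKMS E-CAD+ 2NG- and 3NG- cells and below them for *Cd44*.

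Along the gates of each cassette, which follow the gain of ICAM1 and then of *Nanog*-GFP, no member was called at any of the 4 steps with all libraries. From MKOS 2NG- to 3NG- cells, 0.390% of genes were called, and *Foxd3* had 0, 0.148, and 1.08 CPM before and 3.35, 5.51, and 3.65 CPM after, without overlap (log2 fold change 3.26, SE 1.12, FDR = 0.34). *Otx2* had 4.999, 4.28, and 16.3 CPM before and 21.1, 22.0, and 58.9 CPM after, also without overlap (1.90, SE 0.78, FDR = 0.55). Without the 7 libraries the change of *Foxd3* was 5.73 and was called (FDR = 0.042). From OKMS E-CAD+ 2NG- to 3NG- cells, 0.0384% of genes were called.

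The step from 3NG- to 3NG+ had higher values of *Foxd3* in each cassette, without overlap, but not past the test. In MKOS, where 1.58% of genes were called, *Foxd3* reached 13.9, 8.10, and 18.2 CPM (log2 fold change 1.86, SE 0.95, FDR = 0.33). In OKMS, where 6.26% were called, it had 1.963, 0.952, and 2.12 CPM before and 8.95, 11.2, and 11.3 CPM after (2.82, SE 1.03, FDR = 0.093). *Otx2* in OKMS had 28.9, 12.4, and 106 CPM before and 96.9, 51.1, and 91.1 CPM after (0.91, SE 0.75, FDR = 0.50). Without the 7 libraries, *Otx2* (2.47, FDR = 0.0019) and *Foxd3* (3.02, FDR = 0.040) were called at the OKMS step. In the test of the difference between cassettes at this step, where 4 of 15630 genes (0.0256%) were called, the OKMS change minus the MKOS change was 0.13 (SE 1.05) for *Otx2* and 0.96 (SE 1.35) for *Foxd3*, neither called. By the same step, 8 of 13 naive genes rose in OKMS, among them *Tbx3* (3.77, SE 0.52), *Tcl1* (3.48, SE 0.54), and *Zfp42* (2.81, SE 0.44), and none of 13 was called in MKOS; none of 13 was called in the test of the difference between cassettes. Of 14 primed genes, none was called in either cassette.

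Cells of equal gate were then compared between cassettes. *Fgf5* was higher in OKMS cells and was the only 1 of 5 members called in the E-CAD+ 2NG- gate, where 5.07% of all genes were called. It had no read in the 3 MKOS libraries, with 23957114 reads on transcripts together, and 3.58, 0, and 45.6 CPM in the 3 OKMS libraries, so that the groups overlapped at 0. The OKMS mean was at least 131-fold above the floor of 3 reads over the MKOS libraries (FDR = 0.020). Most of this came from replicate 3, and without it the call was lost (FDR = 0.18), as it was without the 7 libraries (FDR = 0.26) or without any of the 3 MKOS libraries (FDR = 0.069 to 0.090). In E-CAD+ 3NG- cells *Fgf5* had 14.8, 1.43, and 40.0 CPM in OKMS against 0, 1.57, and 2.17 CPM in MKOS (log2 difference 4.07, SE 1.73, FDR = 0.25, and 2.82 without replicate 3 of OKMS). In 3NG+ cells it had 5.80, 4.20, and 14.7 CPM against 2.31, 0, and 1.23 CPM, without overlap (3.02, SE 1.69, FDR = 0.47).

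*Zic2* also had higher means in OKMS at each gate. In E-CAD+ 2NG- cells it had 5.97, 0.322, and 13.1 CPM in OKMS and 2.04, 2.07, and 1.90 CPM in MKOS, with overlap. Its cassette difference was 1.88 (SE 0.80, FDR = 0.19) in E-CAD+ 2NG- and 2.06 (SE 0.79, FDR = 0.19) in E-CAD+ 3NG- cells. In 3NG+ cells it was 1.87 (SE 0.78, FDR = 0.31). Without replicate 3 of the OKMS population the first of these was 0.82 and that in 3NG- cells 1.34. In 3NG+ cells it had 20.8, 18.2, and 23.7 CPM in OKMS and 4.84, 8.30, and 5.96 CPM in MKOS, without overlap. No member was called in E-CAD+ 3NG- or 3NG+ cells, where 2.17% and 0.685% of genes were called. In E-CAD+ 3NG- cells *Foxd3* was lower in OKMS, with means of 1.68 CPM against 4.17 CPM in MKOS, without overlap (-1.16, SE 0.996, FDR = 0.66). There 4 members had positive differences, among them *Zic2* and *Pou3f1* without overlap. In the 2NG- gate the 3 members besides *Fgf5* and *Zic2* had positive differences, 2.09 (SE 0.79, FDR = 0.13) for *Otx2*, 3.04 (SE 1.12, FDR = 0.11) for *Foxd3*, and 3.70 (SE 1.44, FDR = 0.14) for *Pou3f1*. Without replicate 3 of OKMS E-CAD+ 2NG- those of *Otx2* and *Foxd3* turned to -0.61 and -0.78 and that of *Pou3f1* was 0.40 (FDR = 0.99), whereas *Otx2* was called without replicate 2 of OKMS (2.63, FDR = 0.032) and *Foxd3* without replicate 3 of MKOS (5.39, FDR = 0.047).

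The lists set *Fgf5* beside other epiblast genes. In E-CAD+ 2NG- cells, 6 of 16 formative genes were higher in OKMS and none lower, among them *Sox3*, which had no read in MKOS, *Pim2* (3.41, SE 0.76), and *Dnmt3b* (2.81, SE 0.62). Of 14 primed genes, 2 were higher, the endoderm-associated *Cer1*, which had no read in MKOS, and *Eomes* (6.99, SE 1.81). All *Cer1* reads of OKMS E-CAD+ 2NG- came from replicate 3, at 196 CPM, and *Eomes* had 3.41, 2.26, and 54.6 CPM there. Without this library 1 of 16 formative and none of 14 primed genes was called higher, and without the 7 libraries none of either list. Of 13 naive genes, 5 were lower in OKMS, led by *Tcl1* (-3.78, SE 0.55), *Prdm14* (-3.64, SE 1.04), and *Zfp42* (-2.60, SE 0.43), and 1 higher, *Nr0b1*, named after its values were seen. The 8 MEF genes had a median of -1.60 with 4 called lower in OKMS, and of 8 neural genes *Tubb3* was lower (-4.58, SE 0.60) and *Sox1*, with no read in MKOS and a mean of 1.30 CPM in OKMS, higher. Without replicate 3 of OKMS, 4 naive genes, 5 MEF genes, and 1 neural gene were called lower. No neural gene was then called higher, and none was without the 7 libraries. In E-CAD+ 3NG- cells, 5 of 13 naive genes were lower in OKMS, and *Pim2* and *Cer1* were the only formative and primed genes called, both higher. Without replicate 3 of OKMS E-CAD+ 3NG-, 5 naive genes were again called lower and no formative or primed gene was called. Without the 7 libraries, 5 naive genes were called lower, and 1 of 16 formative and 1 of 13 tested primed genes higher. In 3NG+ cells, *Pim2* (3.04, SE 0.77) and the naive gene *Dppa3* (3.76, SE 0.75) were higher in OKMS, no naive gene was lower, and *Spry4*, an FGF feedback inhibitor, was lower (-2.67, SE 0.49).

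**Figure D3:**
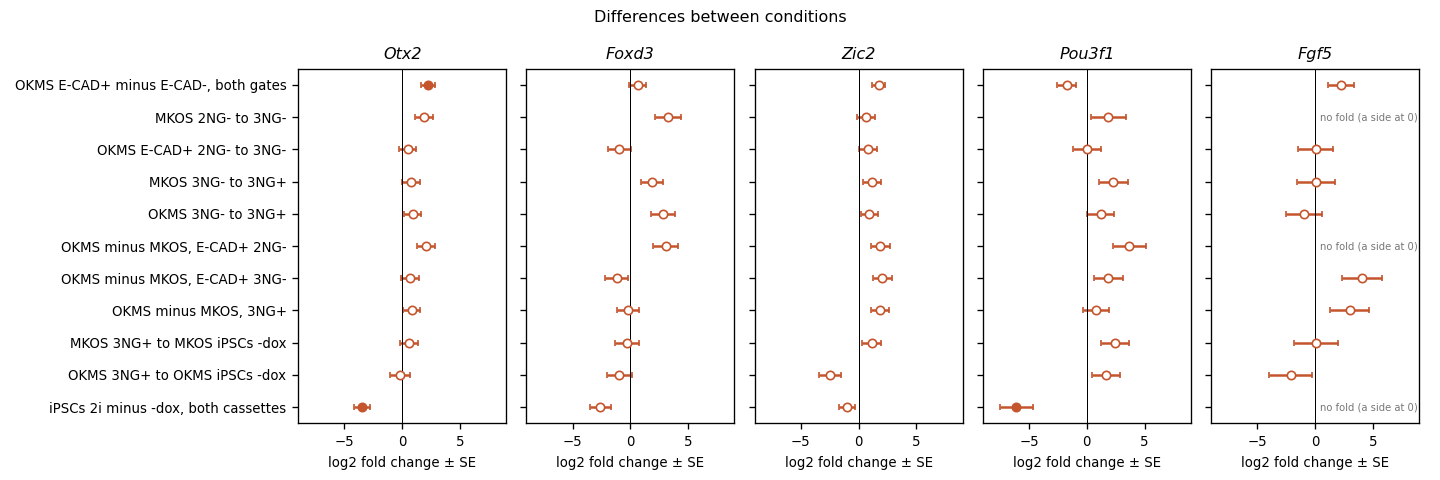
Log2 fold change with SE of each gene in 11 comparisons from edgeR's fit to 48 libraries, filled where the FDR was at most 0.05; for "A to B" the change is B minus A. The only filled points are *Otx2* for E-CAD+ against E-CAD- and *Otx2* and *Pou3f1* for 2i against -dox. That *Pou3f1* value averages in MKOS iPSCs in 2i, which had no read, so its size is not a measured ratio. No point is drawn where a side had no read, which includes the call for *Fgf5* in E-CAD+ 2NG- cells.

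Established lines were compared to ask how the sorted cells and iPSCs related to ESCs. No member was called between MKOS 3NG+ cells and MKOS iPSCs -dox (2.14% of genes called), between OKMS 3NG+ cells and OKMS iPSCs -dox (0.614%), between iPSCs -dox and TNG MKOS and TNG OKMS ESCs (1.40%), between E14 and TNG ESCs (0.0448%), or between D6 and the other iPSCs -dox (1.25%). *Zic2* had 20.8, 18.2, and 23.7 CPM in OKMS 3NG+ cells and 1.65 and 6.23 CPM in OKMS iPSCs -dox, without overlap (log2 fold change -2.46, SE 0.94, FDR = 0.30). D6 iPSCs had 25.1 and 34.6 CPM of *Otx2*, below all 4 MKOS and OKMS iPSC libraries (-1.28, SE 0.83, FDR = 0.59). They also had 0.828 and 2.89 CPM of *Pou3f1*, below the 3.53 to 14.5 CPM of these 4 (-2.13, SE 1.26, FDR = 0.53). *Fgf5* ranged from 0 to 7.04 CPM over the 8 ESC libraries, with no read in 3 of them.

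The 2i comparison asks how the members differ between iPSCs in 2i and iPSCs -dox. The paper describes iPSC culture in medium with fetal calf serum and LIF and gives no 2i medium. The inhibitors and other differences of the medium therefore cannot be told apart. *Otx2* and *Pou3f1* were lower in MKOS and OKMS iPSCs in 2i than -dox. These were 2 of 5 members, against 4.34% of all genes called, and the other 3 members had negative values. *Otx2* was at 3.24 and 15.4 CPM in MKOS and at 8.28 and 2.99 CPM in OKMS iPSCs in 2i, against 87.7 and 69.9 CPM and 57.9 and 88.4 CPM -dox. The log2 fold change was -3.48 (SE 0.73, FDR = 0.0027), and leaving out any of the 8 libraries kept the call, with changes from -4.27 to -3.10. *Pou3f1* had no read in MKOS iPSCs in 2i and 1.59 and 0.351 CPM in OKMS iPSCs in 2i. It had 3.53 to 14.5 CPM -dox (log2 fold change -6.10, SE 1.42, FDR = 0.0077). This fold averages log2 condition means, and MKOS iPSCs in 2i had no read, so its size is not a measured ratio. Mean *Pou3f1* was 0.484 CPM in 2i and 8.52 CPM -dox. Its FDR was 0.058 without replicate 1 of MKOS iPSCs in 2i and 0.0505 without replicate 2 of OKMS iPSCs in 2i.

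*Fgf5* had no read in the 4 libraries of iPSCs in 2i, with 20541720 reads together, and 0, 2.66, 0.825, and 3.21 CPM -dox, a mean at least 11.5-fold above the floor, which did not pass the test (FDR = 0.16). *Foxd3* had 0, 10.1, 0.528, and 0.176 CPM in 2i and 10.6, 11.5, 2.47, and 8.55 CPM -dox (-2.59, SE 0.93, FDR = 0.11). Replicate 2 of MKOS iPSCs in 2i overlapped the -dox range. Without it the change was -6.67, a size that is not a measured ratio because the MKOS library left had no read. *Zic2* had 2.81 to 4.93 CPM in 2i and 1.65 to 17.7 CPM -dox (-0.97, SE 0.69, FDR = 0.52, 95% interval -2.31 to 0.38). In the test of whether the 2i difference itself varied between cassettes, 1 of 15630 genes (0.00640%) was called and no member was among them.

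**Figure D4:**
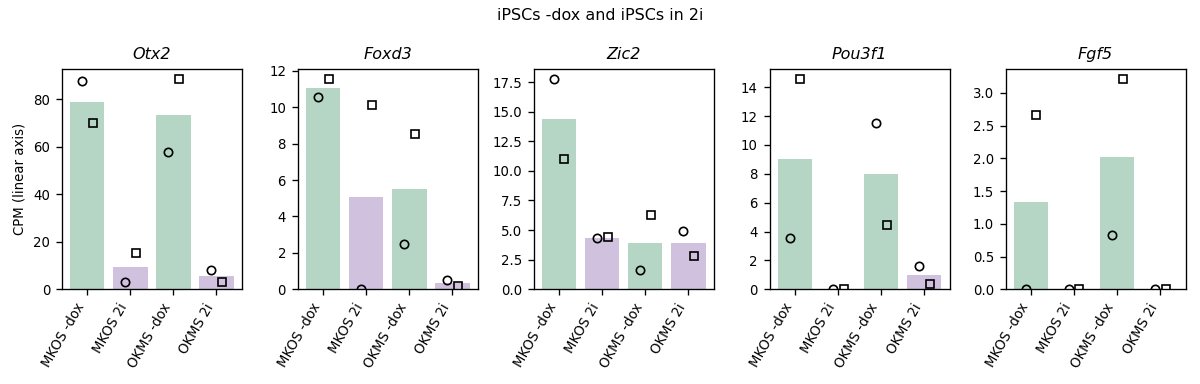
CPM (linear axes from 0, each panel with its own scale) of the 5 genes in MKOS and OKMS iPSCs -dox (green) and in 2i (purple). Bars are means of 2 libraries and circles and squares replicates 1 and 2; *Otx2* lay at 57.9 CPM or more -dox and at 15.4 CPM or less in 2i.

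The same comparison changed genes of FGF signaling and of the formative list. Of 11 FGF receptors and feedback genes, 5 were lower in 2i and none higher, led by *Spry4* (-9.06, SE 0.75), *Dusp4* (-4.80, SE 1.02), and *Dusp6* (-3.64, SE 0.34), all inhibitors that ERK signaling induces. Of 16 formative genes, 7 were lower and none higher, led by *Utf1* (-4.04, SE 0.44), *Dnmt3a* (-2.92, SE 0.37), and *Etv4* (-2.86, SE 0.58), with a median of -1.69 against 0.00 over all genes tested. Of 14 primed genes, the Nodal antagonists *Lefty1* (-4.18, SE 0.93) and *Lefty2* (-2.12, SE 0.62) were lower and none was higher. Of 13 naive genes, *Tfcp2l1* (2.23, SE 0.43) and *Tbx3* (1.63, SE 0.38) were higher and none lower. Of 8 neural genes, *Pax6* (-5.41, SE 1.49) and *Neurod1* (-4.05, SE 1.23) were lower, whereas none of 5 neural crest and none of 8 MEF genes was called.

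Of 14 relatives of the members in the OTX, POU3F, ZIC, FOXD, and FGF families, 10 passed the filter on low counts. From MEFs to iPSCs -dox, where 50.6% of all genes were called, 3 relatives were higher, led by *Fgf4* (10.65, SE 0.71), and 4 were lower, among them *Foxd1* (-7.19, SE 1.71) and *Zic1*. *Zic1* had no read in these iPSCs and a mean of 2.89 CPM in MEFs.

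Across the 20 condition means of log2(CPM + 1), *Otx2* and *Foxd3* were the most alike of the 10 member pairs (Pearson's r = 0.87), followed by *Zic2* and *Foxd3* (0.77) and *Pou3f1* and *Foxd3* (0.73), whereas *Fgf5* had r from 0.19 to 0.37 with the others. These are descriptions over conditions that share lines and cassettes. MEFs enter each of them, with low levels of *Otx2*, *Foxd3*, and *Pou3f1*. In WT MEFs the means of *Fgf5* and *Zic2* were 2.32 and 3.81 CPM. The genes most like *Otx2* were *Exosc5*, *Eras*, and *Gpn1* (each r = 0.95), and those most like *Foxd3* were *Enah* (0.94), *Etaa1* (0.93), and *Tmeff1* (0.93). The profile of *Pou3f1* was nearest to *Neurod1* (0.93), *Ina* (0.92), and *Ripply1* (0.92), and that of *Zic2* to *Aoah* (0.86), *Sesn2* (0.83), and *Zfp819* (0.79). *Fgf5* was nearest to *Tgm3* (0.84), *Cer1* (0.82), and *Car4* (0.81). These neighbors depended on the measure: over the 48 libraries in place of condition means, 2 of the 3 were kept for *Otx2*, 1 each for *Fgf5*, *Pou3f1*, and *Foxd3*, and 0 for *Zic2*.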

How the data were processed

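Reads were made and counted by the authors. RNA of sorted cells or of cell lines was turned into STRT libraries. The authors deposited unnormalized read counts of transcripts, of repeats, and of spike-in RNAs. A read that matched several places was assigned to its most 5′ exonic hit, per the file header. The labels' processing notes name Bowtie 0.12.7 and mm10, whereas the methods name an older build. Of 10373 plus-strand RefSeq symbols, 50.5% had a file position at a fixed offset of 100 bases from the GRCm38.p6 start and 88.5% a position within 1000 bases, so GRCm38 coordinates are given.

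CPM was computed over transcript rows of the deposited counts, leaving out repeats and spike-ins. edgeR 4.0.16 (R 4.3.3) was run with TMM factors, its default filter by condition (15630 genes kept, all 5 members among them), and quasi-likelihood tests in a single fit to all 48 libraries, with the 20 conditions as its only terms (common dispersion 0.217). A Benjamini-Hochberg FDR of at most 0.05 over all genes tested was a call. Fold bounds set a mean CPM against 3 reads over the group without reads. SE is the log2 fold change divided by the square root of the quasi-likelihood F, and intervals are normal 95% intervals. Comparisons that join several conditions average their log2 means. Where an averaged condition had no read, the size of the fold is not a measured ratio, for listed genes as for members. Functions were tested on simulated data. Alternatives were DESeq2 1.42.0, its size factors, no filter, the compared conditions alone, the replicate number as a block, each library left out (with the dispersion trend of the full fit held), and leaving out 7 sorted libraries that lie outside the study's published population averages. Where a condition then had 1 library, that library was assumed to vary like the others.

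The members and gene lists were chosen with earlier results of these data known. Text names the 5 members, the 3 genes most like each by Pearson's r, and at most 3 called genes per list and comparison with the largest change, besides the sort genes and *Nr0b1*. Some genes of the lists are not reported here by name. Python 3.11.15, pandas 2.3.3, NumPy 2.4.6, and Matplotlib 3.10.9 were used.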

Additional observations from a re-analysis of the deposited data

How the results depend on the processing

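Of the 5 genes, the number called changed as follows. The share of all genes called under each alternative is not given, so these counts are not read as results about the members. For E-CAD+ against E-CAD- it was 1, against 2 with DESeq2, 3 without a filter on low counts, 2 with the replicate number as a block, 0 with the compared conditions alone, and 0 to 2 with each library left out. For OKMS against MKOS in E-CAD+ 2NG- cells it was 1, against 4 without a filter, 0 with the conditions alone, 0 without the 7 sorted libraries, and 0 to 2 with each library left out. For 2i against -dox it was 2, against 4 without a filter and 1 to 3 with each library left out. It was 0 at 6 other comparisons, against 3 without a filter and 1 without the 7 libraries for MKOS 2NG- to 3NG-, 1 with the conditions alone for MKOS 3NG- to 3NG+, 1 without a filter, 1 with the conditions alone, and 2 without the 7 libraries for OKMS 3NG- to 3NG+, 2 without a filter for the cassettes in 3NG-, 1 with the conditions alone for the cassettes in 3NG+, and 1 without a filter for D6. With each library left out it was 0 to 1 from MKOS MEFs to 2NG-, 0 to 2 from OKMS MEFs to E-CAD- 2NG-, and 3 to 4 from MEFs to iPSCs. Values that turned were *Foxd3* for E-CAD (-1.79 without the 7 libraries, and -1.27 to 0.98 with each library left out, lowest without replicate 3 of E-CAD+ 2NG-) and *Otx2* (-0.61 to 2.95) and *Foxd3* (-0.78 to 5.39) between cassettes in 2NG-, lowest without replicate 3 of OKMS. The causes were not tested.

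The labels do not say whether a shared replicate number marks a shared experiment, and the main fit has no term for it. Deviations of 84 same-numbered pairs of sorted libraries correlated with a mean r of 0.0754 (-0.0443 to 0.320). Of 24 libraries, 21 correlated best with their own number. Whether same-numbered libraries share a batch is not known. Depth limits *Fgf5* and *Pou3f1* most, since many of their values lie at or below the floor of 0.212 to 2.10 CPM.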
